A study of Mus musculus with 20 samples.

Results

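CD31-positive cells sorted from E0771 tumours were compared between hosts labelled CD4KO or TCRKO, here called deficient, and hosts labelled CD8KO or WT, here called competent, within one range of library numbers. E0771 cells, from a mammary carcinoma of the mouse, had been placed in the fat pad and the tumours taken at 500 mm3. CD31 (Pecam1) is an adhesion protein of endothelial cells, which were enriched with microbeads and then sorted by FACS. The members are 13 of the 20 libraries of the series, chosen by their label and by the range of their number, WT_9748 to WT_9772. The deficient class held CD4KO (CD4KO_9768, CD4KO_9769 and CD4KO_9770) and TCRKO (TCRKO_9765, TCRKO_9766 and TCRKO_9767), so 6 libraries. The competent class held CD8KO (CD8KO_9751, CD8KO_9752 and CD8KO_9753) and WT (WT_9748, WT_9749, WT_9771 and WT_9772), so 7 libraries. All hosts are C57BL/6J and carried the same tumour line; the labels give neither the allele behind each knockout nor the age of the mice, and do not say which T cell receptor gene TCRKO hosts lack. CD4 status largely follows the numbers: all 6 deficient libraries lie from TCRKO_9765 to CD4KO_9770, while 5 of the 7 competent ones have lower numbers and only WT_9771 and WT_9772 lie near. What the numbers stand for is not given, and number and CD4 status can be told apart through those 2 libraries alone. The labels do not tie libraries to animals. The p-values therefore reflect the spread among these libraries alone, and that spread may be technical.

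CD4 T cells help other immune cells and are a source of interferon-gamma, a cytokine that acts on endothelial cells through its own surface receptor. In vessels it is known to raise guanylate-binding proteins, the chemokines Cxcl9 and Cxcl10 and antigen presentation by MHC class II. CD8 T cells and NK cells make interferon-gamma too, and a host without a T cell receptor has neither CD4 nor CD8 T cells of the usual kind, so the 2 deficient hosts differ in more than CD4 T cells.

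Total counts ran from 2014883 (WT_9771) to 10741250 (TCRKO_9766). WT_9771 had 47.1% of its counts on satellite-like genes, and no other library had over 2.53%. Protein-coding genes held 81% of the counts in CD8KO_9752 and 12.8% to 51.2% elsewhere. The 51.2% was that of WT_9771 and includes most of its satellite-like counts. Ribosomal and other abundant RNAs held 17.2% (CD8KO_9752) to 86.8% (WT_9749) of the counts, with a median of 74.3%. Levels are CPM, counts scaled to library sizes that TMM factors adjust, and a floor of 3 counts stood at 0.132 CPM in CD8KO_9752 and 2.69 CPM in WT_9771, for counting error only. Libraries were no more alike within a host or class than between classes: the median Spearman correlation was 0.735 over 15 pairs of one host, 0.742 over 21 pairs of the same class and different hosts, and 0.732 over 42 pairs of different classes. Pecam1 and the endothelial cadherin gene Cdh5 were at 476 CPM or more in every library, as endothelial cells would have.

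The genes named in the host labels did not separate the hosts as the labels would have it. Cd4 had 72, 33 and 102 counts in the libraries labelled CD4KO and 37, 36 and 5 in TCRKO, against 30, 78 and 0 in CD8KO and 17, 41, 19 and 2 in WT. Cd8a, the alpha chain of CD8, had 0, 23 and 0 counts in CD4KO and 0, 0 and 9 in TCRKO, against 338, 914 and 601 in the libraries labelled CD8KO and 0, 0, 3 and 0 in WT. Cd4 averaged 9.68 CPM in CD4KO and 3.47 CPM in TCRKO, against 2.65 CPM in CD8KO and 7.37 CPM in WT, so it was not lower in the libraries labelled CD4KO. Cd8a RNA is not what the CD8KO label would have. Cd8b1, the beta chain of CD8, had 0 counts in every CD8KO library and at most 3 in any other. Whether the Cd8a RNA came from CD8 T cells or from a changed allele was not tested. CD4KO, CD8KO, deficient and competent are used below as labels only, and every direction drawn from these libraries carries that limit. Trac, Trbc1 and Trbc2, constant regions of the T cell receptor, had at most 9 counts in any library, and Cd3e at most 11. Counts this low could not show whether a T cell gene was lost.

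By CD4 status no gene passed. Of 12655 genes tested with edgeR's quasi-likelihood test in a 2-group model, 0 (0%) had an adjusted p under 0.05, and the smallest adjusted p was 0.9993. At an unadjusted p under 0.05 there were 487 genes, fewer than the 633 that 5% of the tested genes would give: 268 (2.12%) were higher and 219 (1.73%) lower in deficient hosts. DESeq2 and limma-voom also called 0. Genes named below for this comparison are the leading ones by p, given as values. Among the 8 libraries from TCRKO_9765 up, edgeR again called 0, and the 8 genes plotted for this comparison kept their direction. Fcer1g had a log2 fold change of 1.49, Cd44 of 1.27 and Ttc17 of -2.19. Those libraries include all 6 deficient ones, and the genes were chosen with them, so this is no independent check. For Cd44, Notch2 and Tbc1d2, which were without overlap between the classes, the direction could hardly change.

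Fcer1g and Tyrobp, signalling adaptors of activating Fc and myeloid receptors, were near the top. Fcer1g (chromosome 1, 171229572 to 171234365, GRCm38) stood at 105, 53.4 and 27.0 CPM in CD4KO and 113, 60.4 and 109 CPM in TCRKO, against 39.9, 19.1 and 31.5 CPM in CD8KO and 28.3, 41.5, 23.3 and 32.7 CPM in WT. All 3 TCRKO libraries and 2 of the 3 CD4KO libraries lay above every competent one, and CD4KO_9770 lay among them. The log2 fold change was 1.33 ± 0.35 (SE; edgeR adjusted p = 0.9993). Tyrobp had 66.7, 17.2 and 4.83 CPM in CD4KO and 30.0, 12.2 and 47.8 CPM in TCRKO, against 3.45, 6.26 and 12.01 CPM in CD8KO and 7.25, 13.1, 2.69 and 11.9 CPM in WT. Its log2 fold change was 1.85 ± 0.55, with the same 2 CD4KO libraries above all competent ones and 2 of the 3 TCRKO libraries.

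Cd44 and Notch2 were parted in every library. Cd44, a hyaluronan receptor (chromosome 2, 102811141 to 102901665), had 52.7, 20.9 and 23.2 CPM in CD4KO and 20.4, 49.0 and 41.5 CPM in TCRKO, against 10.4, 10.8 and 13.9 CPM in CD8KO and 14.2, 19.1, 17.1 and 12.5 CPM in WT. The lowest deficient library was just above the highest competent one, and the log2 fold change was 1.31 ± 0.37. Notch2, a receptor for Delta and Jagged ligands (chromosome 3, 98013527 to 98150361), had 49.7, 41.8 and 43.0 CPM in CD4KO and 61.7, 43.3 and 37.2 CPM in TCRKO, against 22.4, 31.1 and 4.12 CPM in CD8KO and 15.4, 27.3, 27.8 and 2.58 CPM in WT. Its log2 fold change was 1.31 ± 0.47, and the deficient libraries lay within a narrow band while CD8KO_9753 and WT_9772 lay far below the other competent ones.

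Cdk6, a kinase of the G1 phase, averaged 33.7 ± 17.7 CPM in CD4KO and 38.1 ± 7.38 CPM in TCRKO, against 13.7 ± 0.329 CPM in CD8KO and 15.4 ± 6.80 CPM in WT (SD, n = 3, 3, 3 and 4). The log2 fold change was 1.29 ± 0.37, with CD4KO_9770 at 13.9 CPM among the competent libraries. Ftl1, the ferritin light chain that stores iron, averaged 590 ± 315 CPM in CD4KO and 789 ± 149 CPM in TCRKO, against 406 ± 61.5 CPM in CD8KO and 248 ± 123 CPM in WT, a log2 fold change of 1.12 ± 0.34. Xdh, xanthine dehydrogenase of purine breakdown, and Noc2l, an inhibitor of histone acetylation, were the remaining genes of at least 10 CPM with all 6 deficient libraries above all 7 competent ones. Xdh averaged 48.9 ± 12.7 CPM in deficient and 24.0 ± 9.204 CPM in competent libraries, and Noc2l 22.4 ± 5.69 CPM in deficient and 7.70 ± 5.69 CPM in competent libraries.

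Ttc17, a tetratricopeptide-repeat protein, had the smallest p of all genes of at least 10 CPM. It stood at 6.53, 8.93 and 12.4 CPM in CD4KO and 11.8, 15.2 and 6.00 CPM in TCRKO, against 32.3, 18.2 and 29.7 CPM in CD8KO and 14.5, 37.8, 49.4 and 45.4 CPM in WT. The log2 fold change was -1.67 ± 0.41, and 1 pair of libraries, TCRKO_9766 and WT_9748, crossed. Tbc1d2, which acts on Rab GTPases, was lower in every deficient library: 1.17, 3.87 and 11.2 CPM in CD4KO and 9.22, 10.56 and 4.80 CPM in TCRKO, against 18.02, 12.2 and 20.7 CPM in CD8KO and 19.0, 38.2, 13.5 and 22.0 CPM in WT. Acot9, an acyl-CoA thioesterase, was parted in the same way, at 6.79 ± 3.47 CPM in deficient and 16.3 ± 4.40 CPM in competent libraries. Fn1, fibronectin, was the most abundant of the leading lower genes, with a log2 fold change of -0.85 ± 0.30. With all 20 libraries of the series its sign turned (0.53). Those 20 add 4 libraries labelled Tie2Cre_H2Abf, counted as deficient, and 3 labelled Tie2Cre, counted as competent. In the main comparison 6 genes (0.0474%) lay above and 3 (0.0237%) below without overlap. Between 6 and 7 libraries an exact permutation test cannot go under p = 0.00117 (two-sided), the value of every gene without overlap. These genes were picked for the lack of overlap, so that value was fixed by the choice and gives them no support. Random assignment of the libraries would on average give at least as large a share of such genes.

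**Figure D1:**
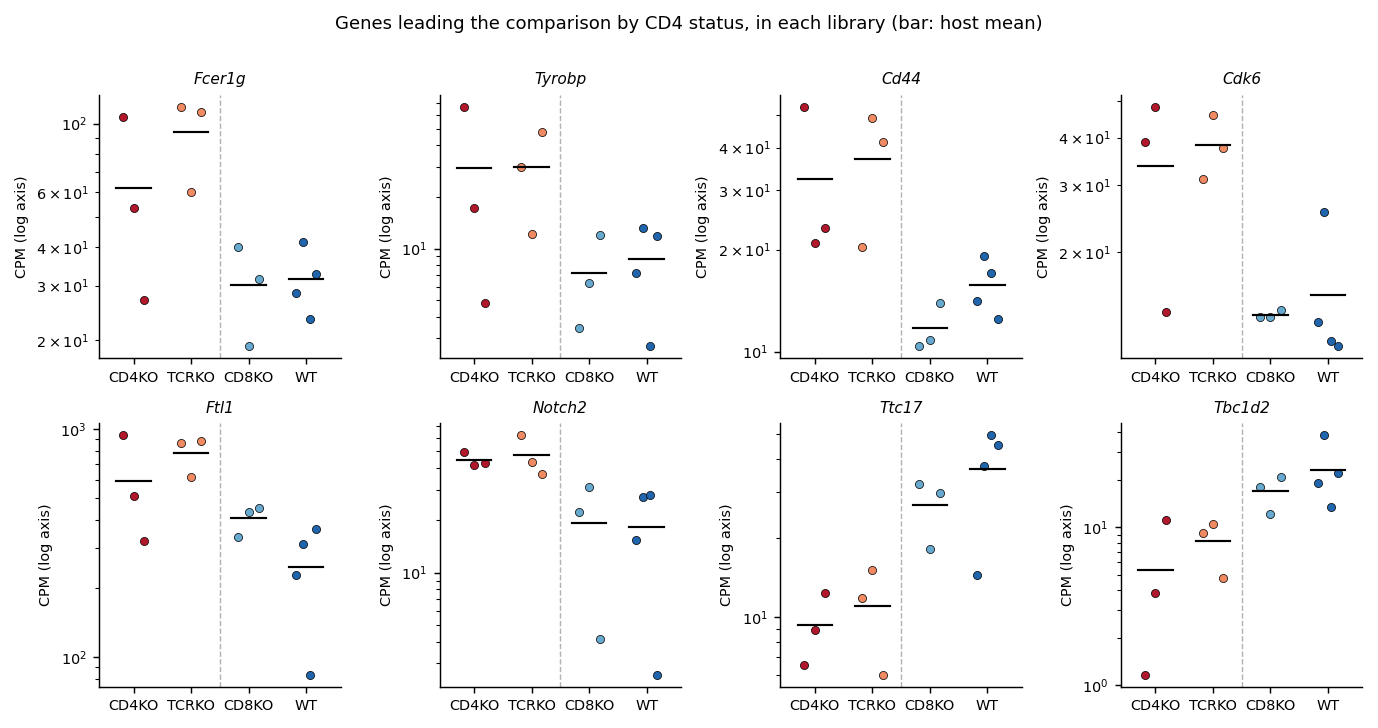
CPM on a log axis in each of the 13 libraries for 8 genes that lead the comparison by CD4 status; points are libraries, bars host means, and the dashed line parts the deficient hosts (CD4KO, TCRKO) from the competent ones (CD8KO, WT). Cd44 and Notch2 are higher and Tbc1d2 lower in every deficient library, while for Fcer1g, Tyrobp, Cdk6 and Ftl1 the library CD4KO_9770 lies among the competent ones.

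Fcer1g and Tyrobp are also macrophage markers. The 14 macrophage markers were all tested and detected; 10 had a log2 fold change above 0 and 4 below, 3 were higher and 0 lower at an unadjusted p under 0.05 (2.12% and 1.73% over all genes), and the median was 0.33, against -0.02 over all genes. Fcer1g and Tyrobp are themselves among the 3 higher markers. They were picked by their p in this same comparison, so the count is no separate evidence for the list. Their summed level was 374 to 855 CPM (median 638) in deficient and 280 to 790 CPM (median 397) in competent libraries. The sum was 653 ± 185 CPM in CD4KO and 626 ± 234 CPM in TCRKO, against 345 ± 58.4 CPM in CD8KO and 556 ± 239 CPM in WT. Set against WT alone the median was -0.03. Csf1r, the receptor that defines the lineage, was at 38.3, 63.4 and 87.2 CPM in CD4KO and 173, 24.1 and 90.3 CPM in TCRKO, against 42.8, 23.3 and 21.5 CPM in CD8KO and 192, 86.0, 44.9 and 80.3 CPM in WT. The part of these cells in the values of Fcer1g and Tyrobp was not tested. In sorted bulk samples, fewer cells of a type and less RNA per cell cannot be told apart.

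Ribosomal protein genes lay above 0 throughout: 39 of 39 had a positive log2 fold change by CD4 status, with a median of 0.60 against -0.02 over all genes, and 9 were higher at an unadjusted p under 0.05, where 2.12% of all genes were. Rps15 had the smallest p, with 1.28 ± 0.49, and Rps18 the next, with 1.04 ± 0.40; both encode proteins of the small subunit. The median was 0.32 in CD4KO and 0.79 in TCRKO against the competent hosts. Summed over the list the level was 5144, 2854 and 1919 CPM in CD4KO and 3941, 5007 and 5049 CPM in TCRKO, against 2034, 4703 and 3965 CPM in CD8KO and 1302, 2223, 1485 and 3387 CPM in WT. The classes overlapped, since CD4KO_9770 lay under 5 competent libraries and CD8KO_9752 above 3 deficient ones. The CD4KO median rested on CD4KO_9768: without it the value was -0.27, and against CD8KO alone it was -0.07. Mitochondrially encoded genes of the respiratory chain had 12 of 12 above 0 (median 0.44), none at an unadjusted p under 0.05, and heat shock genes 13 of 14 (median 0.23).

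Of the other lists, Vegfa, the main ligand of endothelial VEGF receptors, was low in the competent hosts: it had 134 counts in CD4KO and 177 in TCRKO, against 14 in CD8KO and 2 in WT. Its highest values, 18.01 and 11.8 CPM in TCRKO and 9.82 CPM in CD4KO, came from TCRKO_9767, TCRKO_9766 and CD4KO_9770. The other deficient libraries, CD4KO_9768, CD4KO_9769 and TCRKO_9765, had 0, 0.80 and 0.90 CPM, within the competent range of 0 to 1.05 CPM. The host totals thus rest on few libraries. Its receptors did not follow: Flt1 had a log2 fold change of -0.35 ± 0.26 and Kdr of -0.34 ± 0.33. Pgf, another VEGF receptor ligand, was at 41.8, 26.5 and 26.1 CPM in CD4KO and 63.9, 83.8 and 66.3 CPM in TCRKO, against 25.8, 44.4 and 35.1 CPM in CD8KO and 33.7, 16.7, 10.8 and 30.4 CPM in WT, so it stood apart in TCRKO. Vegfc, the ligand of the lymphatic VEGF receptor, ran the other way and averaged 2.38 CPM in CD4KO and 3.76 CPM in TCRKO, against 6.49 CPM in CD8KO and 10.4 CPM in WT. At an unadjusted p under 0.05 by CD4 status, 2 of the 8 tested genes of the VEGF list, Vegfa and Pgf, were higher and 1, Vegfc, lower (2.12% and 1.73% over all genes). The 7 lymphatic endothelial markers were all below 0 (median -0.70), 2 of them at an unadjusted p under 0.05, where 1.73% of all genes were lower. Their summed level averaged 129 CPM in CD4KO and 100 CPM in TCRKO, against 195 CPM in CD8KO and 130 CPM in WT. The classes overlapped, at 65.3 to 171 CPM in deficient and 58.4 to 224 CPM in competent libraries. Prox1, the lymphatic master regulator, had 0, 0.4 and 4.99 CPM in CD4KO and 1.92, 0.248 and 1.44 CPM in TCRKO, against 3.15, 17.2 and 6.19 CPM in CD8KO and 3.62, 8.22, 9.87 and 6.94 CPM in WT. CD4KO_9770 alone of the deficient libraries lay among the competent ones.

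Each deficient host was next set against the average of the CD8KO and WT means in a 4-group model. These comparisons share their competent libraries, so likeness between them is given only as the counts of the classes below. Again 0 genes (0%) passed in CD4KO (smallest adjusted p = 0.9816) and 0 (0%) in TCRKO (smallest adjusted p = 0.1065), and 0 (0%) in TCRKO against CD4KO (smallest adjusted p = 0.1872). At an unadjusted p under 0.05, 459 genes (3.63%) were higher and 184 (1.45%) lower in CD4KO, and 294 (2.32%) were higher and 318 (2.51%) lower in TCRKO. TCRKO against CD4KO gave 226 higher (1.79%) and 425 lower (3.36%). The low counts for edgeR depended on the tool in TCRKO, where DESeq2 called 64 of the 12655 genes, 54 of them lower, and limma-voom 39. Without WT_9771 edgeR itself called 10.

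Genes were put in a class where the unadjusted p was under 0.05. Shared genes had the same sign in both deficient hosts: 73 (0.577%) higher and 8 (0.0632%) lower. In CD4KO alone, a class for genes whose change in the other host was of opposite sign or much smaller and which also differed between TCRKO and CD4KO at that threshold, 93 genes (0.735%) were higher and 81 (0.64%) lower. In TCRKO alone, by the same rule, 49 (0.387%) were higher and 179 (1.41%) lower. A gene with opposite changes can stand in both one-host classes. Of the 487 leading genes by CD4 status, 62 were shared, 12 of CD4KO alone, 31 of TCRKO alone and 384 in no class. With a mean of at least 10 CPM, 16 genes were shared and higher and 2, Ttc17 and the protocadherin Pcdhgb2, shared and lower, against 91 lower in TCRKO alone.

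The shared genes of highest rank were mostly those above: Tyrobp, Cd44, Cdk6, Fcer1g and Ftl1, with Gnptab, a lysosomal enzyme-targeting transferase, Arhgdib, a GDP-dissociation inhibitor of blood cells, and Fau, a ribosomal protein fusion gene. Cd44 had a log2 fold change of 1.25 ± 0.46 in CD4KO and 1.45 ± 0.45 in TCRKO. Tyrobp had 1.87 ± 0.67 in CD4KO and 1.89 ± 0.67 in TCRKO. Trp53inp2, an autophagy gene, and Qpctl, a glutaminyl cyclase, met the shared rule through WT alone. Trp53inp2 averaged 21.7 ± 2.77 CPM in CD4KO and 31.3 ± 4.02 CPM in TCRKO, against 24.9 ± 2.44 CPM in CD8KO and 3.01 ± 2.86 CPM in WT. CD8KO lay with the deficient hosts there, so this gene did not follow CD4 status.

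Interferon-gamma response genes differed in level between the deficient hosts. All 24 tested members of the list were lower in TCRKO than in CD4KO (median log2 difference -1.18, against -0.05 over all genes), 13 of them at an unadjusted p under 0.05, where 3.36% of all genes were lower. Against the competent hosts 22 of 24 were above 0 in CD4KO (median 0.65) and 22 of 24 below 0 in TCRKO (median -0.57), so that by CD4 status the median was 0.03, a value whose sign changed with the processing while those of the hosts did not. Gbp2, a guanylate-binding protein that interferon-gamma induces, had the smallest p of TCRKO against CD4KO among genes of at least 10 CPM: 296, 253 and 275 CPM in CD4KO and 68.4, 65.3 and 31.2 CPM in TCRKO, against 108, 137 and 83.1 CPM in CD8KO and 133, 272, 212 and 241 CPM in WT. TCRKO libraries lay under all others and CD4KO libraries overlapped only with WT. The log2 difference between TCRKO and CD4KO was -2.32 ± 0.43 (edgeR adjusted p = 0.1872), past the threshold with DESeq2 and with limma-voom.

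In Gbp5, Cd274 and Batf2, TCRKO lay under CD4KO but not under CD8KO on average. Most other tested members averaged lower in TCRKO than in CD8KO, with Gbp9, Irf1 and Irgm2 as the exceptions. Gbp5 averaged 95.6 ± 25.99 CPM in CD4KO and 20.9 ± 7.66 CPM in TCRKO, against 16.9 ± 8.16 CPM in CD8KO and 49.2 ± 22.4 CPM in WT. Cd274, which encodes the checkpoint ligand PD-L1, averaged 106 ± 40.0 CPM in CD4KO and 47.3 ± 24.5 CPM in TCRKO, against 41.1 ± 4.89 CPM in CD8KO and 50.3 ± 20.7 CPM in WT. Batf2, an interferon-induced transcription factor, averaged 33.7 ± 21.1 CPM in CD4KO and 9.33 ± 4.53 CPM in TCRKO, against 4.997 ± 1.99 CPM in CD8KO and 10.9 ± 7.5 CPM in WT. Gbp5, Cd274 and Batf2 were thus highest in CD4KO on average, with TCRKO between CD8KO and WT. Chosen after their values were seen, Cxcl9, a ligand of the chemokine receptor CXCR3, averaged 255 ± 155 CPM in CD4KO and 54.4 ± 10.3 CPM in TCRKO, against 58.7 ± 32.8 CPM in CD8KO and 145 ± 63.8 CPM in WT.

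Summed over the 26 genes of the list, the level was 2743, 2436 and 2052 CPM in CD4KO and 1019, 1012 and 817 CPM in TCRKO, against 1142, 1138 and 1346 CPM in CD8KO and 1904, 2492, 1642 and 1566 CPM in WT. Every TCRKO library lay under every competent one, and every CD4KO library above at least 6 of the 7. Each library labelled TCRKO or CD8KO lay under each library of CD4KO and WT; this order, seen in the data, cuts across the division by CD4 status.

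The promoters of interferon-gamma response genes that lead their list are shown because members moved together between hosts. The windows are the 250 bases upstream of the RefSeq transcript start (GRCm38.p6), 5′ to 3′ on the gene's strand, and capitals mark matches to the core of the interferon-stimulated response element (ISRE, GAAANNGAA) or the gamma-activated site (GAS, TTCNNNGAA), searched on both strands. Gbp2 is at chr3:142620413-142620662, Gbp5 at chr3:142496684-142496933 and Cd274 at chr19:29367188-29367437, all on the plus strand.
Gbp2: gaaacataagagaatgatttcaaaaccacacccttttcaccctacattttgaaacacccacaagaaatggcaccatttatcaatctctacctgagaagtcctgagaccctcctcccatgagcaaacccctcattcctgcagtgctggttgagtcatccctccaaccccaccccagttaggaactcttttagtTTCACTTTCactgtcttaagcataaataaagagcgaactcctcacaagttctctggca
Gbp5: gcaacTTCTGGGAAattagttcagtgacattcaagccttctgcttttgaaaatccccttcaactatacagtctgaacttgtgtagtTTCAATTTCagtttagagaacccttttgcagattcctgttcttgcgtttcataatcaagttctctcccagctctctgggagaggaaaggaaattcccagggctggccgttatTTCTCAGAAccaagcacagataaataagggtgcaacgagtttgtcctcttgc
Cd274: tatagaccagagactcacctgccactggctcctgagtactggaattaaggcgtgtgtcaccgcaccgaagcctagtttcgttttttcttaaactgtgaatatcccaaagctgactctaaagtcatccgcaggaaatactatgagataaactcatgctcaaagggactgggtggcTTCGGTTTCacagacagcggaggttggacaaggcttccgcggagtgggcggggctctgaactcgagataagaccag
Gbp2 and Cd274 held 1 ISRE match each, and Gbp5 held 1 ISRE and 2 GAS matches. Of the 16 tested members with a window in RefSeq's table, 12 (75%) held an ISRE match and 8 (50%) a GAS match, against 7.95% and 7.29% of 9278 tested genes with a window. A match is a description of the letters and not of a bound site.

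MHC class II genes were also lower in TCRKO than in CD4KO. All 8 tested members were lower in TCRKO than in CD4KO (median -1.58), 5 at an unadjusted p under 0.05 (3.36% of all genes), with medians of 0.73 in CD4KO and -1.08 in TCRKO against the competent hosts and -0.03 by CD4 status. Cd74, the invariant chain that guards the class II groove, averaged 606 ± 89.6 CPM in CD4KO and 155 ± 72.5 CPM in TCRKO, against 188 ± 56.9 CPM in CD8KO and 865 ± 662 CPM in WT. H2-Ab1, the beta chain of I-A, averaged 145 ± 22.4 CPM in CD4KO and 63.4 ± 5.01 CPM in TCRKO, against 66.6 ± 16.4 CPM in CD8KO and 121 ± 58.6 CPM in WT. Ciita, the class II transactivator, had 48.1, 2.67 and 20.03 CPM in CD4KO and 0.512, 0 and 3.602 CPM in TCRKO, against 1.80, 3.88 and 1.58 CPM in CD8KO and 20.02, 14.4, 4.49 and 1.98 CPM in WT. Summed over the list the level was 1090, 906 and 1094 CPM in CD4KO and 424, 266 and 208 CPM in TCRKO, against 460, 347 and 281 CPM in CD8KO and 2090, 1784, 547 and 505 CPM in WT. WT_9748 and WT_9749 lay above all other libraries, and WT_9771 and WT_9772 far below them. Macrophages express these genes too. Of the 14 macrophage markers 9 were lower in TCRKO than in CD4KO (median -0.30), 1 of them, the complement gene C1qa, at an unadjusted p under 0.05. C1qa averaged 66.5 CPM in CD4KO and 22.2 CPM in TCRKO, against 22.7 CPM in CD8KO and 50.7 CPM in WT, while Csf1r averaged 63.0 CPM in CD4KO and 95.8 CPM in TCRKO, against 29.2 CPM in CD8KO and 101 CPM in WT. The part of macrophages in the class II values was not tested. MHC class I genes differed less, with 13 of 15 lower in TCRKO than in CD4KO and a median of -0.45, and type I interferon genes had 15 of 21 lower and a median of -0.35.

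**Figure D2:**
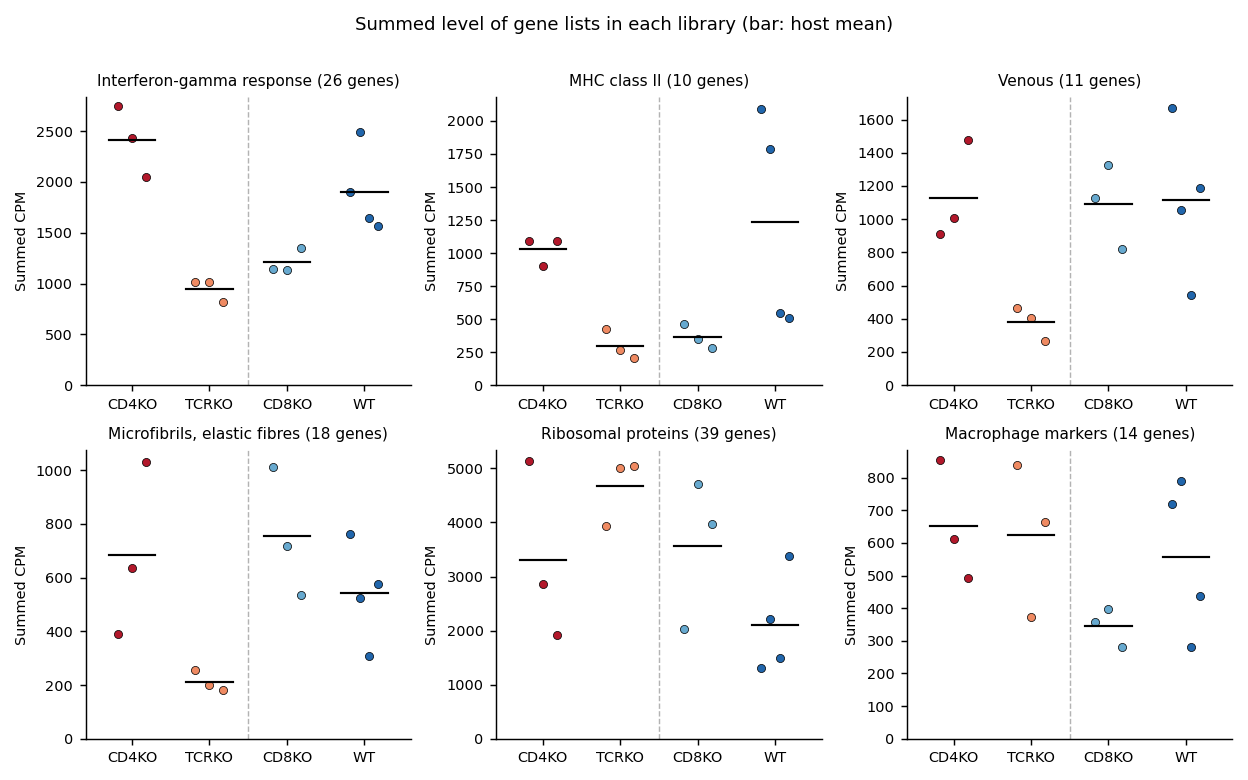
Summed CPM of 6 gene lists in each library; points are libraries, bars host means, and the dashed line parts the deficient hosts from the competent ones. Interferon-gamma response and MHC class II sums are high in CD4KO (2410 and 1030 CPM on average) and low in TCRKO (949 and 299 CPM), venous and microfibril sums are lowest in TCRKO, and ribosomal protein and macrophage sums overlap between the classes.

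A chemokine and its receptor also parted the deficient hosts. Cxcl12, which guides CXCR4-bearing cells (chromosome 6, 117168535 to 117181367), had 224, 327 and 239 CPM in CD4KO and 82.3, 52.3 and 39.9 CPM in TCRKO, against 214, 109 and 125 CPM in CD8KO and 162, 180, 70.9 and 74.4 CPM in WT. All CD4KO libraries lay above and 2 of the 3 TCRKO libraries below every competent one; the log2 difference between TCRKO and CD4KO was -2.18 ± 0.48. Its receptor Cxcr4, a tip cell gene in vessels, ran the other way: 10.5, 90.6 and 64.01 CPM in CD4KO and 303, 270 and 269 CPM in TCRKO, against 146, 87.4 and 266 CPM in CD8KO and 100, 231, 16.2 and 171 CPM in WT. TCRKO libraries lay above all others, though by little for CD8KO_9753. Gbp2, Cxcl12, Ubd (the interferon-inducible ubiquitin D), the serpin Serpina3f and the tetraspanin Tspan15 are the genes of highest rank counted as higher in CD4KO alone. Each also had an unadjusted p under 0.05 in TCRKO, with the opposite sign. Antxr1, a collagen-binding receptor and the leading gene counted as lower in CD4KO alone, averaged 3.64 ± 2.57 CPM in CD4KO and 25.6 ± 4.23 CPM in TCRKO, against 16.3 ± 6.72 CPM in CD8KO and 14 ± 7.14 CPM in WT.

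The class of TCRKO alone was the fullest, and its lower members held genes of veins, matrix and cytokine receptors. Of 11 venous genes, 10 were below 0 in TCRKO against competent hosts (median -1.27; 7 at an unadjusted p under 0.05, where 2.51% of all genes were lower) and 7 above 0 in CD4KO (median 0.14). Selp, P-selectin, which tethers leukocytes, had 115, 68.4 and 160 CPM in CD4KO and 35.9, 12.8 and 29.1 CPM in TCRKO, against 158, 262 and 76.5 CPM in CD8KO and 162, 144, 35.9 and 154 CPM in WT. All TCRKO libraries were below the others, by little for WT_9771. Vwf, von Willebrand factor of platelet adhesion, averaged 441 ± 211 CPM in CD4KO and 124 ± 25.3 CPM in TCRKO, against 392 ± 131 CPM in CD8KO and 498 ± 405 CPM in WT. The venous sum was 463, 405 and 267 CPM in TCRKO, and every other library lay above them, from 546 CPM in WT_9771. The endothelial markers as a whole summed to 2906 ± 534 CPM in TCRKO and 3685 ± 1080 CPM in CD4KO, against 4325 ± 487 CPM in CD8KO and 3773 ± 1099 CPM in WT; the part of this level in the venous values was not tested.

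Il6st, gp130, the shared receptor chain of interleukin-6 family cytokines, had 336, 340 and 488 CPM in CD4KO and 161, 97.8 and 65.8 CPM in TCRKO, against 466.1, 420 and 264 CPM in CD8KO and 402, 407, 265 and 465 CPM in WT. TCRKO libraries lay under all others, and the log2 fold change in TCRKO was -1.83 ± 0.38 (edgeR adjusted p = 0.1714), against 0.01 ± 0.34 in CD4KO. In its list 8 of 9 genes were below 0 in TCRKO (median -0.73) and 7 of 9 above 0 in CD4KO (median 0.12), with Osmr, Lifr and Jak2 among those lower in TCRKO than in CD4KO at an unadjusted p under 0.05.

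Fbn1, fibrillin-1 of microfibrils (chromosome 2, 125300594 to 125507993), had 6.30, 18.3 and 48.3 CPM in CD4KO and 0.768, 2.36 and 1.201 CPM in TCRKO, against 31.2, 25.2 and 27.3 CPM in CD8KO and 47.0, 7.77, 36.8 and 29.6 CPM in WT. TCRKO libraries lay under all others and held 30 counts in all, and the log2 fold change was -4.30 ± 0.81 (edgeR adjusted p = 0.1065), against -0.25 ± 0.62 in CD4KO. Col15a1, a collagen of vessel basement membranes (chromosome 4, 47208161 to 47313167), had 187, 149 and 266 CPM in CD4KO and 55.6, 50.04 and 24.0 CPM in TCRKO, against 225, 162 and 151 CPM in CD8KO and 337, 195, 109 and 178 CPM in WT. It too was lowest in all TCRKO libraries, with a log2 fold change of -2.15 ± 0.43 (edgeR adjusted p = 0.1714). Fbln2, fibulin-2, averaged 258 ± 145 CPM in CD4KO and 66.7 ± 11.7 CPM in TCRKO, against 304 ± 115 CPM in CD8KO and 257 ± 77.8 CPM in WT. In the microfibril list 5 of 11 tested genes were lower in TCRKO at an unadjusted p under 0.05 (2.51% of all genes) and the median was -1.13; it was 0.13 in CD4KO and 0.05 by CD4 status. Among libraries from TCRKO_9765 up the TCRKO median was 0.60. Other genes of TCRKO alone were Cadm3, an adhesion molecule, at 0.666 ± 0.439 CPM in TCRKO and 23.3 ± 18.4 CPM in CD4KO, and Serping1, the C1 inhibitor of complement, at 4.40 ± 3.999 CPM in TCRKO and 49.2 ± 13.8 CPM in CD4KO. Of 9 tested pericyte markers, 8 were below 0 in TCRKO against competent hosts (median -0.92). Of these, 2, Rgs5 and Tagln, had an unadjusted p under 0.05 (2.51% of all genes). In TCRKO against CD4KO 6 were below 0 and 3 above, with a median of -1.98. The 3 were Pdgfrb, Kcnj8 and Abcc9, which averaged 2.75, 2.56 and 25.2 CPM in TCRKO and 1.22, 0 and 17.2 CPM in CD4KO. Rgs5, a regulator of G-protein signalling in pericytes, averaged 0.889 CPM in TCRKO and 14.3 CPM in CD4KO, against 6.70 CPM in CD8KO and 3.68 CPM in WT. Abcc9, a potassium channel subunit, held most of the summed level in TCRKO, at 25.2 CPM. The markers summed to 37.5, 42.7 and 32.9 CPM in TCRKO and 40.8, 84.1 and 51.6 CPM in CD4KO, against 59.3 to 94.9 CPM in CD8KO and 33.9 to 79.1 CPM in WT. Fibroblast markers summed to 40.5, 125 and 88.1 CPM in TCRKO and 78.4, 55.4 and 30.6 CPM in CD4KO, against 47.1 to 57.9 CPM in CD8KO and 0.888 to 53.0 CPM in WT. By CD4 status 5 of their 11 tested genes were higher and 0 lower at an unadjusted p under 0.05 (2.12% and 1.73% of all genes). Even so, 6 of the 11 lay below 0 and the median was -0.08. Against the competent hosts their median was 0.80 in CD4KO and 0.65 in TCRKO. The part of either cell type was not tested.

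Higher in TCRKO alone were Apln, Angptl2, Prmt5, Npm1 and Gapdh. Apln, the apelin peptide of tip cells (chromosome X, 48025146 to 48034853), had 125, 191 and 228 CPM in CD4KO and 600, 654 and 565 CPM in TCRKO, against 318, 286 and 493.3 CPM in CD8KO and 71.5, 76.8, 72.7 and 302 CPM in WT. TCRKO libraries lay above all others, and CD8KO libraries above CD4KO ones. Angptl2, a secreted angiopoietin-like protein (chromosome 2, 33216069 to 33247717), had 5.13, 7.73 and 1.53 CPM in CD4KO and 19.97, 90.7 and 41.1 CPM in TCRKO, against 3.90, 8.55 and 4.003 CPM in CD8KO and 4.32, 4.44, 5.39 and 0.793 CPM in WT. Its log2 fold change was 2.62 ± 0.72 by CD4 status but 0.09 ± 0.67 in CD4KO and 3.50 ± 0.64 in TCRKO, so its rank by CD4 status came from TCRKO. Gapdh of glycolysis averaged 417 ± 84.9 CPM in CD4KO and 957 ± 212 CPM in TCRKO, against 631 ± 46.9 CPM in CD8KO and 367 ± 213 CPM in WT. The tip cell list as a whole was mixed, with 10 of 18 above 0 in TCRKO (median 0.17) and 5 of 18 in CD4KO (median -0.15).

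**Figure D3:**
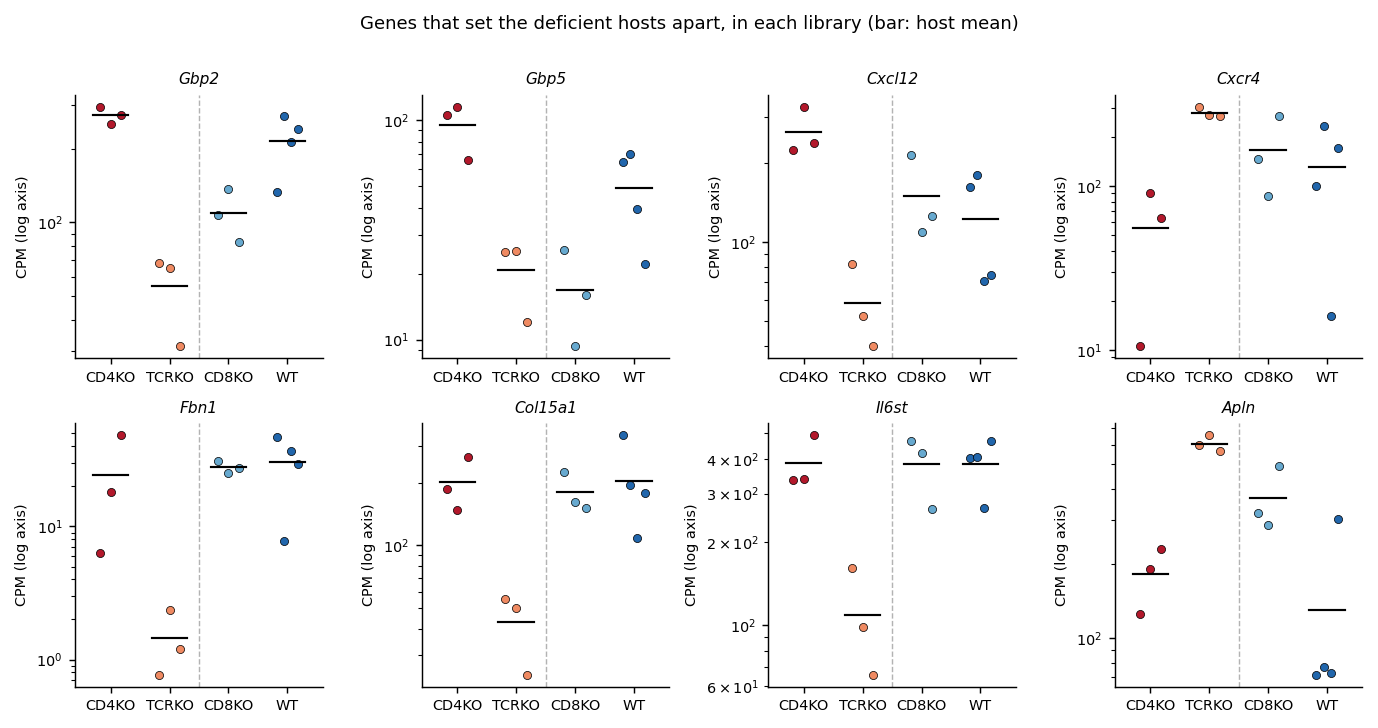
CPM on a log axis in each library for 8 genes that differ between the deficient hosts; points are libraries, bars host means, and the dashed line parts deficient from competent hosts. Gbp2 and Cxcl12 are highest in CD4KO on average and lowest in TCRKO, Fbn1, Col15a1 and Il6st are lowest in the 3 TCRKO libraries, and Cxcr4 and Apln are highest in TCRKO.

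**Figure D4:**
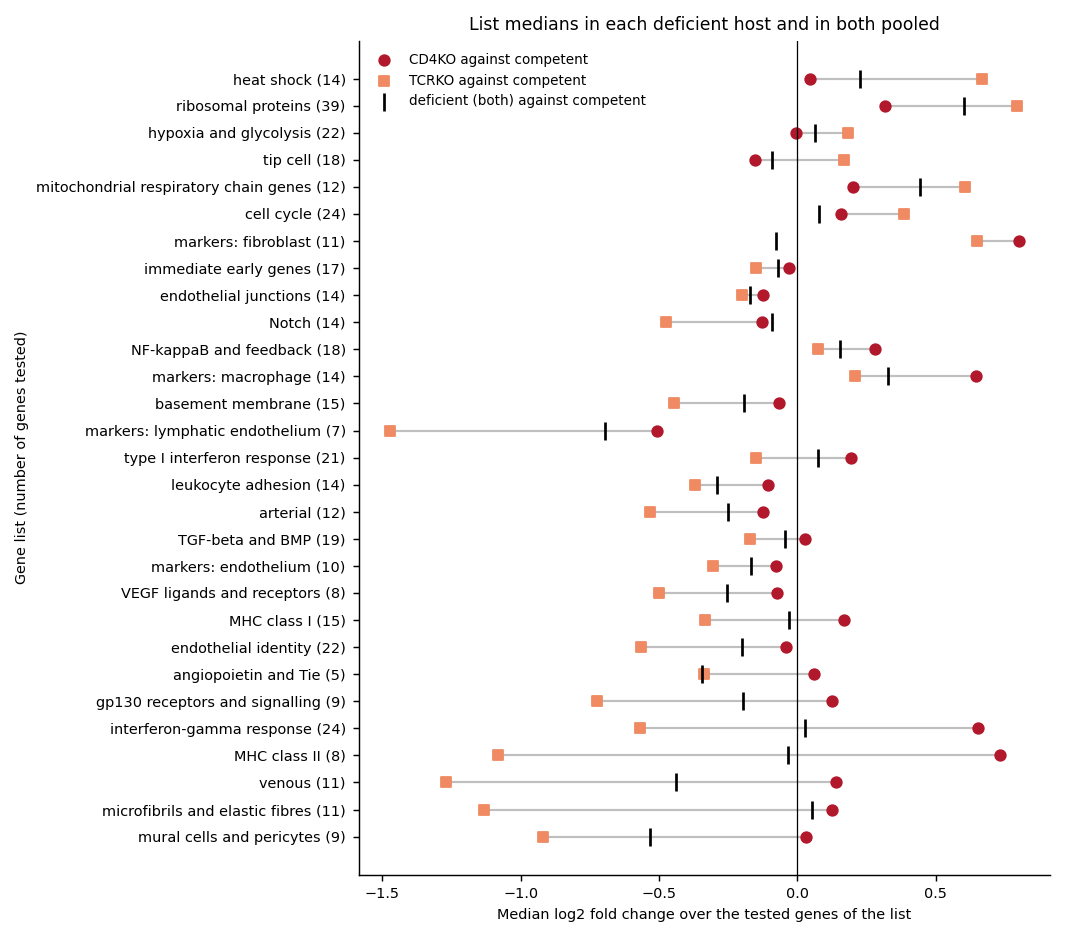
Median log2 fold change over the tested genes of each list, in CD4KO (circles) and TCRKO (squares) against the competent hosts and for both pooled in the 2-group model (black ticks), ordered by the median of TCRKO minus CD4KO. For interferon-gamma response and MHC class II genes the hosts lie on opposite sides of 0 and the pooled value near 0, while ribosomal proteins lie above and lymphatic markers below 0 in both.

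To compare the hosts without shared controls, each deficient host was paired with a different competent one. Across the 12655 genes the difference CD4KO minus CD8KO had a Spearman correlation of -0.10 with TCRKO minus WT, and 45.6% of genes had the same sign. The other pairing, CD4KO minus WT with TCRKO minus CD8KO, gave -0.03 and 48.3%. Restricted to the 4380 genes averaging 10 CPM or more, the correlations were -0.08 and 0.01. These are descriptions across genes, which are not independent replicates, and the points share the 13 libraries' depth and composition.

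**Figure D5:**
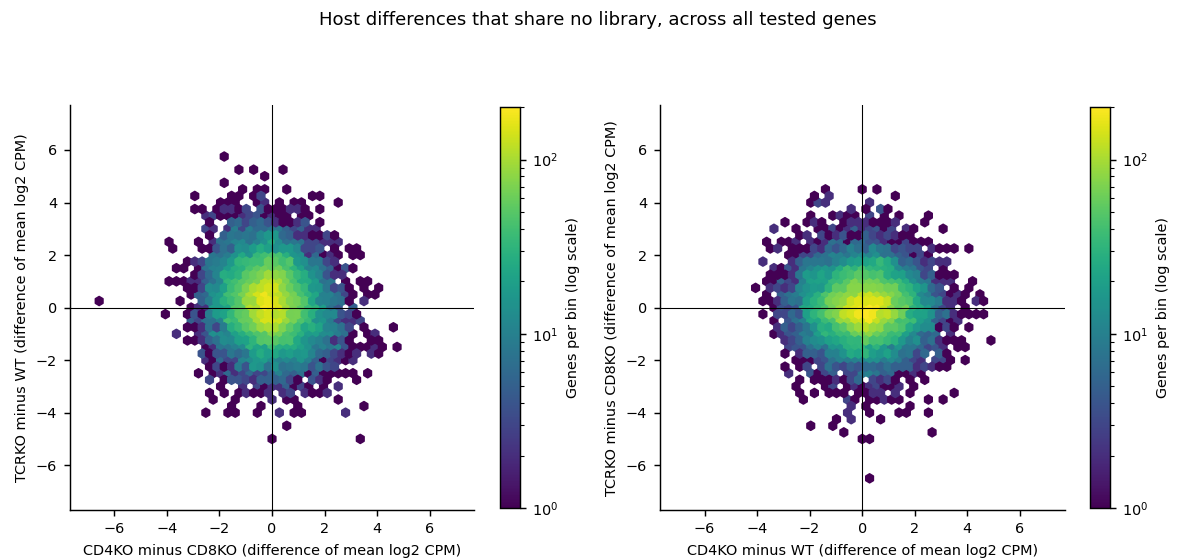
Differences of mean log2 CPM between a deficient and a competent host for all tested genes, with CD4KO on the horizontal and TCRKO on the vertical axis and no library used on both axes; colour gives the number of genes per bin on a log scale. The clouds show no slope, with correlations of -0.10 (left) and -0.03 (right).

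The competent hosts were compared in the same 4-group model. In CD8KO against WT, 0 genes (0%) passed (smallest edgeR adjusted p = 0.7229), while at an unadjusted p under 0.05 there were 264 higher (2.09%) and 566 lower (4.47%). DESeq2 called 42. Cd74 had a log2 fold change of -2.20 ± 0.56 and Gbp5 of -1.55 ± 0.53 in CD8KO against WT, with the label taken as given. Apln had 1.48 ± 0.47 and Trp53inp2 2.93 ± 0.67.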

How the data were processed

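RNA of CD31-positive cells underwent MATQ amplification before Nextera XT library preparation, per the labels' protocols; that kit does not mark strand. Per the submitters' processing notes the tools included bcl2fastq 2.17, STAR, RSEM 1.2.28 and DESeq2 with build GRCm38. The authors deposited RSEM expected counts for 46983 gene IDs per library, not normalized, per the file headers; 4.45% were not whole and all were rounded. RSEM shares reads among near-identical genes, so single members of families such as the guanylate-binding proteins or Tgtp1 and Tgtp2 are uncertain. A GENCODE GRCm38 annotation named 46488 IDs.

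Of the 20 libraries, the 13 from WT_9748 to WT_9772 were analysed. edgeR 4.0.16 in R 4.3.3 used TMM factors, filterByExpr by host (12655 genes kept), robust quasi-likelihood fits and Benjamini-Hochberg adjustment over these genes with a threshold of 0.05. Fold changes by CD4 status come from a 2-group model (common biological coefficient of variation 0.98) and those by host from a 4-group model (0.939), in which competent is the average of the CD8KO and WT means. Standard errors were derived from the F statistic. A gene was of one host alone where that host's unadjusted p and that of TCRKO against CD4KO were under 0.05 and the other host's change was of opposite sign or under 0.5 of its size. Replicate libraries differed by far more than sampling noise (chi-square per degree of freedom 32.4 to 738), so none was a duplicate.

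Named genes are the 10 per direction of smallest p by CD4 status, the 10 per direction shared by both deficient hosts, 5 per direction and host of one host alone, up to 5 per direction without overlap (all with a mean of at least 10 CPM) and up to 4 per list by the smallest p; part of them is given, some genes are not reported here, and the list members Csf1r, C1qa, Cxcl9, Osmr, Lifr, Jak2, Rgs5 and Tagln were added after their values were seen. The members, the 39 gene lists (482 genes, 1 symbol without a match) and these rules were chosen with earlier results of these data known. The fits were tested on simulated data. Alternatives were DESeq2 1.42.0, limma-voom 3.58.1 with sample weights, RLE factors, filters on low counts, protein-coding genes alone, other host sets and leaving out each library.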

Additional observations from a re-analysis of the deposited data

Results flagged for a closer look

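Dixon's test was run on 102 groups of values (library measures, leading genes and list sums in the 6 deficient, 7 competent and 4 WT libraries). In 12 of them (11.8%) it set 1 library far from the others. Its chance rate of about 1 in 20 holds for independent, normally distributed values. Here the WT libraries recur among the competent ones and the genes were chosen by their values, so 11.8% cannot be read as an excess. WT_9771 stood out among the competent and the WT libraries by its satellite-like share of 47.1%, with the next library at 0.983%, and by a summed level of endothelial markers of 2136 CPM, under 4016 CPM in the next. It also had 40.4 CPM of Ubfd1, far above the other competent libraries, and 5.39 CPM of Xdh, far below the other WT ones. WT_9749 was the high library among the competent and the WT ones for Cdk6 (25.5 CPM), and among the competent ones for Arhgdib (52.9 CPM) and Tbc1d2 (38.2 CPM). CD8KO_9753 had 26.7 CPM of Lgals1, a galectin, and WT_9772 had 31.1 CPM of Wdr62, both the highest among the competent libraries. What sets these libraries apart was not tested.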

How the results depend on the processing

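By CD4 status edgeR's count of 0 held under every alternative run except no filter on low counts, which gave 32 genes, 7 of them among the genes of the main test and 3 with at least 10 CPM (Angptl2, Rpl41 and Tyrobp). Of the 12655 genes kept, DESeq2 called 3 in CD4KO, 64 in TCRKO, 72 in TCRKO against CD4KO and 42 in CD8KO against WT. limma-voom called 39 in TCRKO and 2, Gbp2 and Cxcl12, in TCRKO against CD4KO. With no filter the counts were 36 in CD4KO, 24 in TCRKO, 14 in TCRKO against CD4KO and 26 in CD8KO against WT, and with at least 5 CPM in 6 libraries 5 in TCRKO (Col15a1, Fbln2, Il6st, Angptl2 and Fbn1). Leaving out 1 library gave 0 to 10 in TCRKO (10 without WT_9771, 1 without WT_9772 and 1 without TCRKO_9767) and 0 to 1 in TCRKO against CD4KO. The cause was not tested.

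The main count of genes without overlap, deficient against competent, was 9. It became 14 with no filter, 159 against WT alone, 171 against CD8KO alone and 1520 among libraries from TCRKO_9765 up. It was 0 with all 20 libraries, where Tie2Cre_H2Abf was counted as deficient and Tie2Cre as competent. When 1 library was left out it was 14 to 47. Fewer libraries allow more such genes, also under random assignment. The shares that random assignment would give were not computed, so these counts cannot be read as an excess. Without both WT_9771 and CD8KO_9752, an alternative added after the data were seen, there were 52 genes without overlap, and the correlation values were 0.000 and 0.073. Leaving out 1 library moved the rank correlation of host differences without shared libraries, CD4KO minus CD8KO with TCRKO minus WT, between -0.182 and -0.031. It moved the rank correlation of host differences without shared libraries, CD4KO minus WT with TCRKO minus CD8KO, between -0.172 and 0.036.

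Of 1073 alternative values of named genes 1048 kept their direction and call, 24 became stronger and 1 turned: Fn1 with all 20 libraries (0.53, adjusted p = 0.855). The list medians kept their sign in every alternative for interferon-gamma response genes in CD4KO (0.23 to 0.97), in TCRKO (-0.97 to -0.25) and between them (-1.46 to -1.08), and for MHC class II genes (0.24 to 1.33, -1.64 to -0.36 and -1.85 to -1.30); by CD4 status both changed sign (-0.19 to 0.46 and -0.44 to 0.69). The microfibril median turned positive in TCRKO (0.60) among libraries from TCRKO_9765 up. Depth limits all of this: a floor of 3 counts is 2.69 CPM in WT_9771. No paired analysis was possible because each library number is used once.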
